A study of Mus musculus with 12 samples.

Results

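The cyclic AMP and CREB response genes described here are 8 mouse genes: the transcription factors Creb1 and Crem, the nuclear receptors Nr4a1, Nr4a2 and Nr4a3, the kinase gene Sik1, and the phosphodiesterase genes Pde4b and Pde4d. They were taken by gene symbol from tables of 17875 genes, whatever their values, and all 8 were found and passed the filter on low counts that left 13453 genes for testing. RNA was measured by poly(A)-selected, strand-specific sequencing in 12 libraries of colorectal tumour tissue grown under the skin of mice, with 3 libraries in each of 4 groups. The low-dose and high-dose groups received Xiao-chai-hu decoction, a traditional Chinese herbal formula, and both were also under chronic stress. The stress group carried the tumour under chronic stress without the decoction, and the control group carried the tumour alone. The labels give neither the doses, the tumour line, the mouse strain and age, nor whether each library is a different animal, and the p-values below thus speak only to the spread between libraries, which may be technical.

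Stress catecholamines act on receptors that, through the G protein Gs and adenylyl cyclase, raise cyclic AMP inside the cell. Cyclic AMP activates protein kinase A, which phosphorylates CREB bound to cyclic AMP response elements, and CREB then switches on a fast set of target genes. Several of those targets close the loop: CREM isoforms made from an internal promoter repress the same elements, salt-inducible kinase 1 keeps the CRTC coactivators of CREB out of the nucleus, and PDE4 enzymes break cyclic AMP down.

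Promoter sequence is shown for the NR4A genes, because they are the classic fast targets of the pathway and carried more copies of its element than any other windows examined for these genes. Each window runs from 250 bases before to 50 bases after an annotated transcript start, comes from RefSeq on GRCm38.p6, and is written 5′ to 3′ along the gene. Starts outside the windows were not examined, and the Nr4a1 window lies inside its gene span and not at its first base. Capitals mark every match to the core of the cyclic AMP response element, CGTCA or its reverse complement TGACG. The windows are chr15:101266596-101266895 on the plus strand for Nr4a1, chr2:57123954-57124253 on the minus strand for Nr4a2 and chr4:48045055-48045354 on the plus strand for Nr4a3.
Nr4a1: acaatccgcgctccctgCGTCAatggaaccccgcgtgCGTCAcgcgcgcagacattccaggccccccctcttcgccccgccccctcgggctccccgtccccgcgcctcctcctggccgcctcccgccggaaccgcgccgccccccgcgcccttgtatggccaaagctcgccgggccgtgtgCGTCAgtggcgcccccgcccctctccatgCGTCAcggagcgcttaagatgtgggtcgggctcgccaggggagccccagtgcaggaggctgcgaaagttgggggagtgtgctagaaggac
Nr4a2: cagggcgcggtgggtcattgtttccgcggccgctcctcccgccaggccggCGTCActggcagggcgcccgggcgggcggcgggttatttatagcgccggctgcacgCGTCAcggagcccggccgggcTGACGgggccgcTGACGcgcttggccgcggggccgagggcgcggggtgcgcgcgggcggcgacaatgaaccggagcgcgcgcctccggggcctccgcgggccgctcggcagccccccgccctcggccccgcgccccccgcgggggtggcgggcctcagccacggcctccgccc
Nr4a3: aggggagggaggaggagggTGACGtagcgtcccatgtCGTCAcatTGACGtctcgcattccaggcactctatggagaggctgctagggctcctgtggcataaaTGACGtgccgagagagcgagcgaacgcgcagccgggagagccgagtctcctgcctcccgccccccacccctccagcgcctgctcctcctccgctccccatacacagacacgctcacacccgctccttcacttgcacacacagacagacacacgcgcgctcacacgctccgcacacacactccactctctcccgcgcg

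Each of the 3 NR4A windows held 4 core elements. They began at positions -233, -213, -69 and -40 from the start in Nr4a1, at -200, -144, -123 and -111 in Nr4a2, and at -231, -213, -205 and -147 in Nr4a3. Of 32851 mouse promoter windows of the same length, 20.8% held at least 1 core element on either strand and 0.231% held at least 4. The full palindrome TGACGTCA, which contains the core element on both strands, was in 1.79% of all windows and in none of the 9 windows available for 6 of the 8 genes. The TATA motif TATAAA or its reverse complement TTTATA was in 13.6% of all windows and matched once in Nr4a2. Among the remaining windows, Pde4b had a single core element at -34 in 1 of its 4 windows, while Pde4d and Creb1 had none. The table of promoters had no Sik1 entry, and Crem was not analysed here for sequence.

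The library totals lay between 16734741 and 17950195 counts, and 15476 to 15775 genes had a value above 0 in each library. The defining markers of colorectal epithelium were at or near 0 in the tumour tissue: Epcam, an epithelial adhesion molecule, reached at most 0.84 TPM (transcript abundance scaled to length and depth), and the keratins Krt8, Krt18 and Krt20 at most 0.13, 0.1 and 0.12 TPM. Of the 12 epithelial markers listed, 11 were in the tables and 3 passed the filter, with Cdh1 at 1.71 to 6.46, Lgals4 at 7.54 to 23.06 and Sox9 at 46.22 to 92.41 TPM. Skeletal muscle transcripts stood out in high-dose library 2, control library 1 and low-dose library 3, where the summed level of 15 muscle markers was 898.1, 495.2 and 349 TPM, against 7 to 79.52 TPM in the other 9 libraries. Low-dose library 2 also deviated with gene length, since across genes its deviation from the mean of all libraries correlated with log transcript length at r = -0.56, against -0.19 to 0.33 in the other libraries. In bulk tissue such as this, fewer cells of a type and less RNA per cell cannot be told apart.

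Per unit of transcript length, Creb1 was the most abundant of the 8 genes and Pde4d the least. Averaged over the 12 libraries, Creb1 stood at 31.3 ± 3.92 TPM (SD), above 71.5% of the genes in the tables. Sik1 followed at 20.6 ± 5.16 TPM, and Pde4b at 10.7 ± 2.91 and Nr4a1 at 10.4 ± 3.78 TPM were neighbours that did not differ beyond their spread. Crem at 8.14 ± 1.25 TPM lay below them, within the spread of Nr4a1, and Nr4a2 stood at 5.07 ± 0.838 TPM. Both low genes were close to the counting limit: Nr4a3 averaged 0.76 ± 0.223 TPM from 21 to 57 counts a library, and Pde4d averaged 0.297 ± 0.0988 TPM from 14 to 35 counts a library. The exact Poisson 95% interval was 7.65 to 23.5 around 14 counts and 24.4 to 48.7 around 35 counts, which covers counting error only, and these intervals of the lowest and highest Pde4d library were less than 1 count apart.

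**Figure D1:**
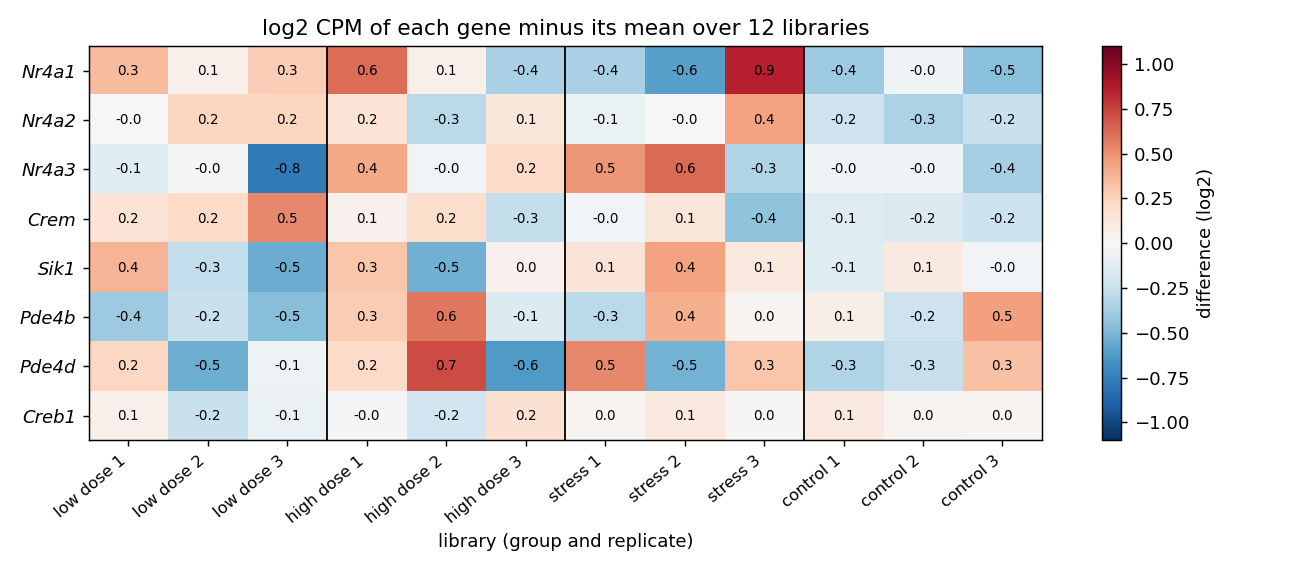
Difference of each of the 8 genes from its own mean over the 12 libraries (log2 scale, colour) for every library, with the groups in the order low dose, high dose, stress, control. Nr4a1 was highest in stress library 3 at 18.69 TPM, and Creb1 stayed within 22.39 to 36.66 TPM.

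Among the factors that bind the element, Creb1 (Entrez 12912, chr1:64532794-64604548, plus strand, GRCm38.p6) encodes the activator itself. It had 33.65, 22.39 and 27.48 TPM in low-dose tumours, 32.27, 26.78 and 36.66 TPM in high-dose tumours, 32.78, 33.78 and 31.15 TPM in stress tumours and 34.41, 32.32 and 32.07 TPM in control tumours. The stress and control libraries kept within a narrow band, and the lowest values were those of low-dose library 2, the library with the length trend, and high-dose library 2, the library richest in muscle transcripts. Its highest library was 1.64 times its lowest, the smallest such ratio of the 8 genes, and its coefficient of variation was 12.5%. Crem (Entrez 12916, chr18:3266354-3337773, minus strand) encodes activating and repressing isoforms, which counts per gene do not separate. It had 9.29, 7.61 and 10.51 TPM in low-dose tumours, 8.65, 9.21 and 7.33 TPM in high-dose tumours, 8.13, 9.16 and 6.15 TPM in stress tumours and 7.59, 7.33 and 6.77 TPM in control tumours. The control libraries sat low and close together, and all groups overlapped with at least 1 other.

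The NR4A genes encode orphan nuclear receptors that act as transcription factors and whose activity follows their amount. Nr4a1 (Entrez 15370, chr15:101253902-101274795, plus strand) had 13.36, 8.44 and 10.64 TPM in low-dose tumours, 16.22, 10.16 and 8.09 TPM in high-dose tumours, 8.05, 6.7 and 18.69 TPM in stress tumours and 7.72, 9.95 and 7.28 TPM in control tumours. In TPM, a single library was high in each of the low-dose, high-dose and stress groups, and the stress group held both the lowest and the highest value of the series. Those 3 libraries were also the 3 with the largest summed level of the 8 fibroblast markers, within a range of 1650 to 7195 TPM. That level was 7195 TPM in low-dose library 1, 6616 TPM in high-dose library 1 and 5055 TPM in stress library 3. The part of fibroblast transcripts in the Nr4a1 values was not tested. In counts scaled to library size but not to length (CPM), the low-dose Nr4a1 values lay closer together, at 16.58, 13.57 and 15.71. Nr4a2 (Entrez 18227, chr2:57106830-57124003, minus strand) had 5.17, 4.79 and 5.43 TPM in low-dose tumours, 5.75, 4.01 and 5.87 TPM in high-dose tumours, 4.94, 5.2 and 6.88 TPM in stress tumours and 4.54, 4.05 and 4.26 TPM in control tumours. In TPM, every low-dose and every stress library lay above every control library, while high-dose library 2 lay below all of them. Of all genes tested, 7.08% were higher in stress than in control without overlap in CPM. Low dose was not tested against control, and the share of all genes separated between those groups was not computed. Nr4a3 (Entrez 18124, chr4:48045078-48086447, plus strand) had 0.68, 0.6 and 0.4 TPM in low-dose tumours, 1.01, 0.69 and 0.89 TPM in high-dose tumours, 1.06, 1.15 and 0.63 TPM in stress tumours and 0.74, 0.71 and 0.56 TPM in control tumours. In TPM the low-dose libraries lay below all high-dose libraries, by the narrow margin of 0.68 against 0.69. In CPM, low-dose library 2 at 2.127 lay above high-dose library 2 at 2.117. The share of all genes separated in TPM was not computed. The stress and control libraries overlapped.

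Sik1 (Entrez 17691, chr17:31844248-31855804, minus strand), the feedback kinase, had 26.82, 13.51 and 12.47 TPM in low-dose tumours, 25.54, 13.64 and 21.7 TPM in high-dose tumours, 22.77, 27.79 and 21.85 TPM in stress tumours and 19, 21.98 and 19.69 TPM in control tumours. Low-dose libraries 2 and 3 and high-dose library 2 held the 3 lowest values of the series, while library 1 of either dose lay among the stress libraries. With 554 to 1133 counts a library, Sik1 was well above the counting limit.

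The phosphodiesterase genes end the signal by hydrolysing cyclic AMP. Pde4b (Entrez 18578, chr4:102087332-102607275, plus strand) had 8.45, 7.52 and 6.5 TPM in low-dose tumours, 13.1, 15.17 and 9.81 TPM in high-dose tumours, 8.6, 14.27 and 10.72 TPM in stress tumours and 10.85, 9 and 14.44 TPM in control tumours. In TPM, each low-dose library lay below every library of the high-dose, stress and control groups. In counts scaled to library size but not to length (CPM), low-dose library 2 at 18.05 lay above stress library 1 at 17.38. The share of all genes separated in this way was not computed. Pde4d (Entrez 238871, chr13:108654177-109955969, plus strand) had 0.39, 0.16 and 0.24 TPM in low-dose tumours, 0.36, 0.49 and 0.16 TPM in high-dose tumours, 0.37, 0.23 and 0.33 TPM in stress tumours and 0.24, 0.26 and 0.33 TPM in control tumours. All 4 groups overlapped. Genes annotated inside the Pde4d and Crem loci were not in the tables, so reads from them could not be set beside these values.

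**Figure D2:**
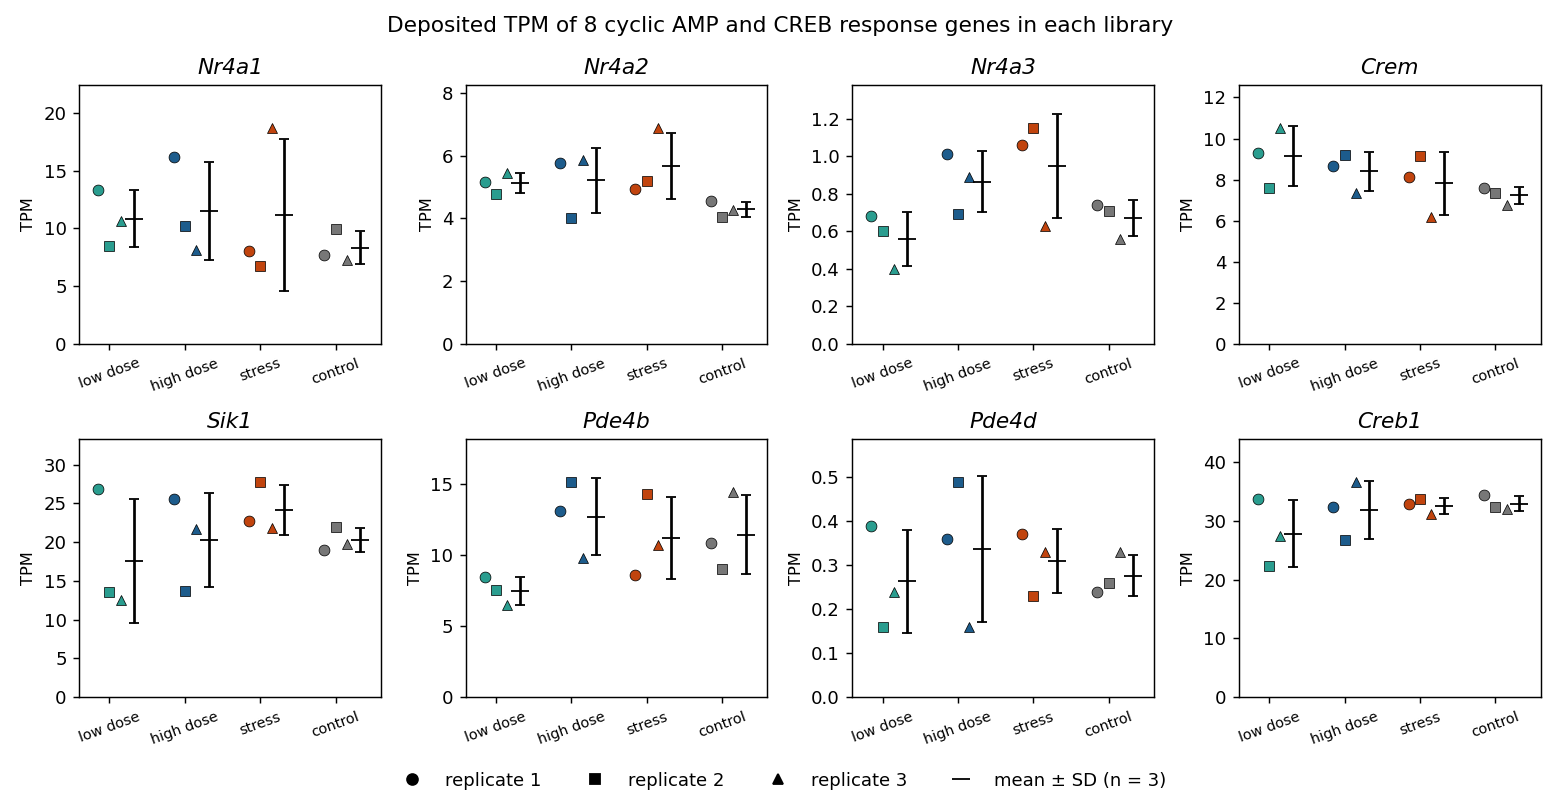
Level of each of the 8 genes in TPM (linear axes starting at 0), with 1 point per library and bars for the group mean ± SD (n = 3), groups in the order low dose, high dose, stress, control. Pde4b averaged 7.49 TPM in the low-dose group, below every library of the other groups. Nr4a1 in the stress group has a wide spread (SD 6.57 TPM), set by 1 library at 18.69 TPM. The largest SD in TPM is that of Sik1 in the low-dose group, at 8.00.

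The first question was whether chronic stress moved these genes in the tumour. None of the 8 passed the test between stress and control tumours (edgeR quasi-likelihood, Benjamini-Hochberg adjusted over all 13453 genes), and neither did any other gene, so the background of calls was 0%. DESeq2 called none of the 8 either, with 0.00743% of all genes called. The estimates were above 0 for 6 of the 8 genes, against 51.7% of all genes, and below 0 for 2, with a median log2 fold change of 0.25, against 0.0059 over all genes tested. At an unadjusted p under 0.05 there was 1 gene of 8, Nr4a2, against 2.85% of all genes. In CPM (counts scaled to TMM-adjusted library size, not to length), 2 of the 8 genes, Nr4a2 and Sik1, lay higher in every stress library than in every control library. The shares of all genes were 14.1% without overlap in either direction and 7.08% without overlap and higher in stress.

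Nr4a2 averaged 5.67 ± 1.05 TPM in stress tumours and 4.28 ± 0.246 TPM in control tumours (SD, n = 3 each), a log2 fold change of 0.41 with a standard error of 0.19 (edgeR unadjusted p = 0.0452, adjusted p = 0.9999). Without stress library 3, where it was highest, the estimate was 0.23. For its relatives Nr4a1 and Nr4a3 the estimates were 0.40 ± 0.35 and 0.45 ± 0.31 (SE), and that of Nr4a1 turned to -0.19 without stress library 3. Sik1 averaged 24.1 ± 3.20 TPM in stress tumours and 20.2 ± 1.56 TPM in control tumours, a log2 fold change of 0.26 ± 0.24, and its lowest stress library overlapped the highest control library in TPM but not in CPM. With a muscle score as a covariate the Sik1 estimate was 0.081. Crem at 0.086 ± 0.19, Pde4b at -0.056 ± 0.22, Pde4d at 0.23 ± 0.42 and Creb1 at -0.0062 ± 0.11 differed by less than the spread between libraries. The summed level of the fibroblast markers was 4023 to 5055 TPM in stress tumours and 2247 to 3116 TPM in control tumours, without overlap. The summed level of 8 neutrophil markers, of which 3 passed the filter, was 38.3 to 62.87 TPM in stress tumours and 32.39 to 34.38 TPM in control tumours, also without overlap. Of the 10 marker lists, the fibroblast and neutrophil lists alone had sums without overlap between these groups. The part of either list in the differences of the 8 genes was not tested. The summed level of the 16 immediate early genes was 840.2 to 1243 TPM in stress tumours and 1018 to 1085 TPM in control tumours, and overlapped. Its largest parts were Klf4, Jun, Klf6 and Myc.

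The next question was whether the decoction moved these genes in stressed animals, beginning with the low dose. No gene passed between low-dose and stress tumours (edgeR adjusted, 0% of all genes), DESeq2 called none of the 8 and 0.706% of all genes, and none of the 8 had an unadjusted p under 0.05, against 13.4% of all genes. The estimates were above 0 for 3 genes, against 49.9% of all genes, and below 0 for 5, with a median of -0.20, against -0.00042 over all genes. Crem alone had no overlap in CPM, 12.5% of these genes, against 11.9% of all genes and 5.37% without overlap and higher in low dose. Since the stress libraries are shared by this comparison and the one between stress and control, values of the comparisons are set side by side and were not correlated.

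Crem had 10.62, 11.04 and 13.79 CPM in low-dose tumours, against 9.331, 10.49 and 7.046 CPM in stress tumours. The log2 fold change was 0.40 ± 0.19 (SE, edgeR unadjusted p = 0.0521, adjusted p = 0.3735), and per length the groups overlapped, with 9.14 ± 1.46 TPM in low-dose and 7.81 ± 1.53 TPM in stress tumours. Pde4b averaged 7.49 ± 0.975 TPM in low-dose tumours and 11.2 ± 2.86 TPM in stress tumours, lower in all 3 low-dose libraries than in any stress library. In CPM the groups overlapped, at 16.18, 18.05 and 15.47 in low-dose against 17.38, 28.03 and 21.77 in stress tumours, and the estimate was -0.43 ± 0.22 (unadjusted p = 0.0764, adjusted p = 0.405), or -0.24 without stress library 2. Nr4a3 had an estimate of -0.59 ± 0.32, Sik1 of -0.33 ± 0.24 and Creb1 of -0.13 ± 0.11. Those of Nr4a1 at 0.11 ± 0.34, Nr4a2 at 0.02 ± 0.18 and Pde4d at -0.26 ± 0.42 were smaller in size than their standard errors. The Sik1 estimate rests unevenly on the libraries, at -0.64 (adjusted p = 0.0746) without low-dose library 1 and at -0.15 without low-dose library 3. That of Creb1 was 0.076 once the trend with gene length was removed by offsets. By group means, 1 of the 8 genes was higher in low dose in TPM and 3 in CPM: the median over all genes was -0.14 on the log2(TPM + 1) scale, against -0.00042 on counts.

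Between high-dose and stress tumours, each of the 8 genes other than Sik1 had an estimate smaller in size than its standard error. None passed (0% of all genes), none had an unadjusted p under 0.05, against 1.42% of all genes, and none was without overlap, against 5.75% of all genes. The estimates were above 0 for 4 genes, against 48.9% of all genes, and below 0 for 4, with a median of -0.016, against -0.0038 over all genes. The estimate farthest from 0 was that of Sik1 at -0.26 ± 0.24, with 20.3 ± 6.07 TPM in high-dose and 24.1 ± 3.20 TPM in stress tumours (SD, n = 3 each), and it was -0.06 without high-dose library 2, -0.46 without high-dose library 1 and -0.11 with the muscle score as a covariate. Pde4b stood at 0.20 ± 0.22, Nr4a2 at -0.13 ± 0.18 and Nr4a3 at -0.10 ± 0.31, while Crem, Nr4a1, Pde4d and Creb1 lay between -0.061 and 0.099. The Pde4b estimate was 0.013 without high-dose library 2 and 0.39 without stress library 2.

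The doses were also set against each other, and Pde4b had the estimate farthest from 0. It averaged 12.7 ± 2.70 TPM in high-dose tumours and 7.49 ± 0.975 TPM in low-dose tumours (SD, n = 3 each). In CPM it had 25.89, 31.98 and 19.29 in high-dose tumours, against 16.18, 18.05 and 15.47 in low-dose tumours, so that every high-dose library lay above every low-dose library in both units. The fold change was 1.55, a log2 fold change of 0.63 ± 0.22 (SE), with an edgeR unadjusted p of 0.0150, and it did not pass over all genes (adjusted p = 0.7579). None of the 8 genes passed (0% of all genes by edgeR and 0.0372% by DESeq2), and Pde4b was 1 of 8 at an unadjusted p under 0.05, against 6.39% of all genes. It was also the 1 of 8 without overlap in CPM, 12.5%, against 7.34% of all genes and 4.16% without overlap and higher in high dose. Without high-dose library 2 and low-dose library 3, the muscle-rich libraries that held its highest and lowest CPM of these groups, and control library 1, the estimate was 0.40 (adjusted p = 0.882). Over all alternatives it lay between 0.40 and 0.80, with adjusted p between 0.199 and 1. The summed level of 11 T cell markers was 36.77 to 73.97 TPM in high-dose tumours and 36.18 to 75.51 TPM in low-dose tumours, and that of 10 macrophage markers was 2406 to 4649 TPM in high-dose and 2855 to 5338 TPM in low-dose tumours, both overlapping. The summed level of 8 endothelial markers was 57.11 to 79 TPM in high-dose tumours and 32.11 to 56.79 TPM in low-dose tumours. In this unit the groups did not overlap, by a narrow margin and in the direction of Pde4b. Over all genes, the median on the log2(TPM + 1) scale also shifted by 0.14 between the doses, and the endothelial sum was not examined in CPM. The part of endothelial transcripts in the Pde4b difference was not tested.

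None of the other 7 genes had an unadjusted p under 0.05 between the doses. Nr4a3 averaged 0.863 ± 0.162 TPM in high-dose and 0.56 ± 0.144 TPM in low-dose tumours, with a log2 fold change of 0.48 ± 0.32 (SE, edgeR unadjusted p = 0.151). Its groups did not overlap in TPM, by a narrow margin, but overlapped in CPM. The share of all genes separated in TPM was not computed. Crem had an estimate of -0.30 ± 0.19 and Pde4d of 0.29 ± 0.42. Nr4a1 at -0.069 ± 0.34, Nr4a2 at -0.15 ± 0.18, Sik1 at 0.074 ± 0.24 and Creb1 at 0.07 ± 0.11 were closer to 0. The estimates were above 0 for 5 genes, against 50.8% of all genes, and below 0 for 3, with a median of 0.072, against 0.0042 over all genes. A test of any difference among the 4 groups gave the smallest unadjusted p for Pde4b at 0.0811 and Crem at 0.0940 (edgeR adjusted p = 0.7772 and 0.7831), and at an unadjusted p under 0.05 it held 0 of the 8 genes and 6.53% of all genes. After adjustment it called none of the 8, and 0% of all genes by edgeR and 0.483% by DESeq2.

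**Figure D3:**
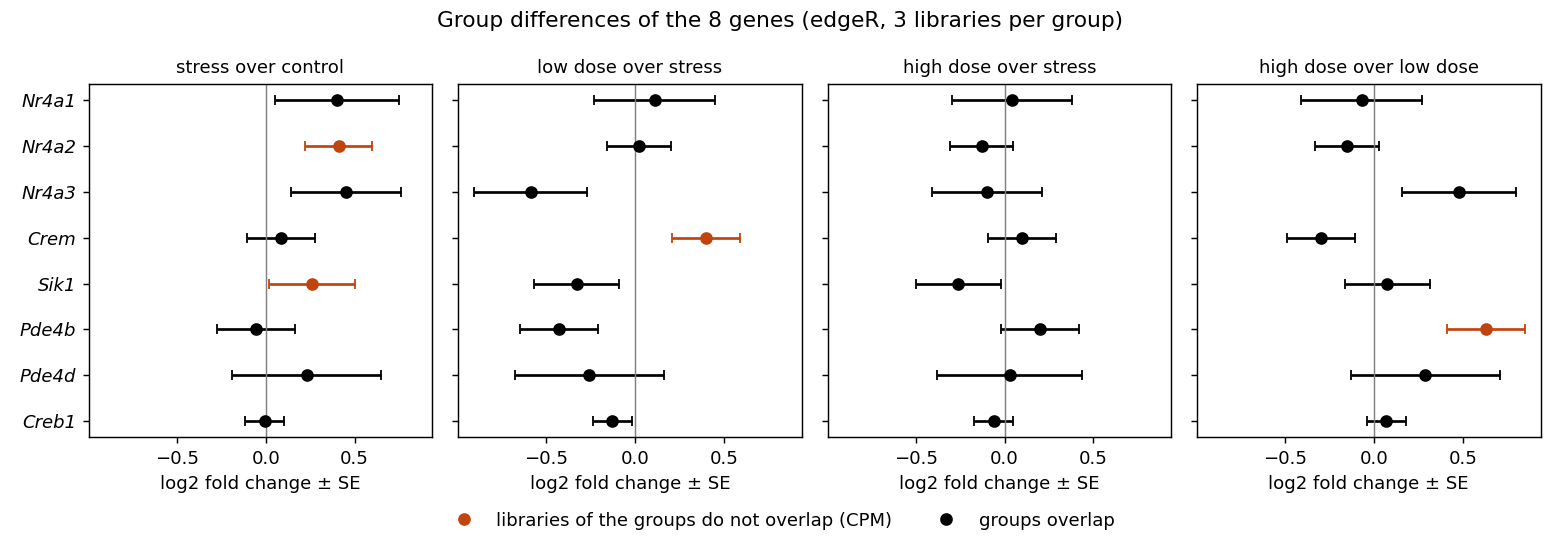
Log2 fold change of each of the 8 genes in the 4 comparisons (points, with bars of ± 1 standard error from the edgeR fit). Red points mark genes whose libraries do not overlap between the groups in CPM: Nr4a2 and Sik1 in stress against control, Crem in low dose against stress, and Pde4b in high dose against low dose, and none of the 32 estimates passed the adjusted test.

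Over the 12 libraries the 8 genes form 28 pairs. Of these, Sik1 and Creb1 had the largest correlation of log2 CPM, at Pearson r = 0.65 (permutation p = 0.0222, adjusted over the pairs 0.4191) and Spearman rho = 0.47 (permutation p = 0.128, adjusted 0.7455). Leaving out the 2 libraries farthest from the median of Sik1 lowered r to 0.46, and with group means removed it was 0.62. Nr4a3 and Sik1 correlated at r = 0.61 (permutation p = 0.0362) and rho = 0.46 (permutation p = 0.133), with r = 0.22 without the 2 farthest libraries. Nr4a1 and Nr4a2 correlated at r = 0.59 (permutation p = 0.0449) and rho = 0.53 (permutation p = 0.0778), with r = 0.27 without the 2 farthest libraries. Crem and Creb1, the factors that share the element, ran at r = -0.51 (permutation p = 0.0929). None of the pairs passed adjustment over the 28.

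The genes whose log2 CPM was most like each of the 8 over these 12 libraries are given with r alone, as a description, since they share libraries, depth and the trends of muscle content and gene length. For Creb1 they were Itch at 0.94, Erbin at 0.93 and Atad2b at 0.93, and for Crem they were Ccl7 at 0.95, Nipsnap3b at 0.93 and Alg1 at 0.90. Nr4a1 was most like Col1a2 at 0.91, which encodes a collagen chain of fibroblasts, Pon2 at 0.91 and Pofut2 at 0.90. For Nr4a2 the most alike were Cd34 at 0.88, Rchy1 at 0.87 and Dkk2 at 0.85, and for Nr4a3 they were Slc22a5 at 0.87, Csprs at 0.85 and Il16 at 0.83. Sik1 ran closest to Zfyve1 at 0.98, Rffl at 0.96 and Sfxn3 at 0.95. Pde4b was most like Btbd10 at 0.87, Dgat1 at 0.84 and Rprd1b at 0.83, and Pde4d like Erg28 at 0.83, Lpcat3 at 0.80 and LOC115487803 at 0.78.

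Around the 8 genes, 82 genes of 6 lists of the pathway passed the filter, and none passed the adjusted edgeR test in any comparison. Unadjusted p fell under 0.05 for 5 of them (6.1%) in stress against control, 13 (15.9%) in low dose against stress, 4 (4.88%) in high dose against stress and 7 (8.54%) in high dose against low dose, to be read against the shares of all genes given above.

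Of the 11 other CREB target genes tested, 8 had estimates above 0 and 3 below in stress against control, with a median of 0.33. Per1, a clock gene and CREB target, averaged 61.4 ± 8.08 TPM in stress tumours and 37.6 ± 5.13 TPM in control tumours (log2 fold change 0.71 ± 0.22, edgeR unadjusted p = 0.00767, adjusted p = 0.9999), and Rgs2, a regulator of G protein signalling, had an estimate of 0.94 ± 0.51. In low dose against stress the split was 6 above and 5 below 0, with Per1 at -0.68 ± 0.22 and Ptgs2, the inducible cyclooxygenase, at 0.95 ± 0.48, or 0.25 without low-dose library 3. In high dose against stress it was 2 above and 9 below, with Per1 at -0.56 ± 0.22 and Cited2 at -0.20 ± 0.15, and in high dose against low dose it was 3 above and 8 below, with Dusp1 at -1.19 ± 0.45 and Fos at -1.95 ± 0.93. Both rest on low-dose library 1, without which the estimates were -0.72 for Dusp1 and -0.72 for Fos. The stress libraries enter the first 3 of these comparisons.

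The immediate early genes, which respond to many signals besides cyclic AMP, had their largest list median, in size, between the doses. In high dose against low dose, 15 of 16 had estimates below 0, with a median of -0.68, and 6 had an unadjusted p under 0.05, among them Junb at -0.87 ± 0.21 and Ier2 at -1.08 ± 0.26. In low dose against stress 14 of 16 were above 0, with a median of 0.54, Ier3 at 1.72 ± 0.47 and Egr3 at 1.03 ± 0.30. In high dose against stress 11 of 16 were below 0, with Egr3 at 0.67 ± 0.30 and Ier2 at -0.54 ± 0.26, and in stress against control 9 of 16 were below 0, with Egr3 at -0.61 ± 0.30 and Fosb at 2.26 ± 1.1. Fosb rests on stress library 3, which had 82.6 CPM, against 5.657 and 4.255 CPM in the other stress libraries and 2.811, 12.38 and 4.084 CPM in control tumours, and without that library its estimate was -0.38. Without low-dose library 3 the estimates against stress were 0.89 for Ier3 and 0.62 for Egr3, and without stress library 3 that of Ier2 in high dose against stress was -0.074. The summed level of the 16 genes was 894.8 to 983.7 TPM in high-dose and 839.4 to 1373 TPM in low-dose tumours, and overlapped. Its largest parts were Klf4, Jun, Klf6 and Myc, which averaged 228, 196, 151 and 110 TPM over the libraries. Their estimates between the doses were 0.063, -0.16, -0.22 and -0.25, so the sum says little about the rest of the list. The estimates of Nr4a1, Nr4a2 and Nr4a3, often grouped with these early genes, were -0.069, -0.15 and 0.48 in high dose against low dose.

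The list on cyclic AMP production holds receptors, G protein subunits and adenylyl cyclases, and includes inhibitory subunits such as Gnai2 and Gnai3. Of its 20 genes, 14 were tested, and their medians lay between -0.043 and 0.12 in the 4 comparisons. Ptger2, a prostaglandin E2 receptor that couples to Gs, had an estimate of 1.31 ± 0.37 in low dose against stress, 0.59 ± 0.37 in high dose against stress and -0.72 ± 0.36 in high dose against low dose, and without high-dose library 1 the estimates of the high dose were 0.14 against stress and -1.17 against low dose. Adcy4 stood at 0.72 ± 0.29 in high dose against stress and at 0.61 ± 0.29 in high dose against low dose, Adcy6 at -0.17 ± 0.087 in low dose against stress, and Adcy5 and Adcy9 at -0.37 ± 0.43 and -0.19 ± 0.23 in stress against control, all 4 encoding adenylyl cyclases. Among 18 effectors of cyclic AMP, Pkig, an inhibitor of protein kinase A, had 57.11, 51.46 and 54.56 TPM in low-dose tumours, against 49.84, 41.94 and 38.37 TPM in stress tumours (log2 fold change 0.51 ± 0.12, edgeR unadjusted p = 0.000906, adjusted p = 0.2659). Its estimate was -0.31 ± 0.12 in stress against control, 0.26 ± 0.12 in high dose against stress and -0.25 ± 0.12 in high dose against low dose. Prkar2b, a regulatory subunit of the kinase, stood at 0.98 ± 0.33 in stress against control, -1.15 ± 0.33 in low dose against stress and -0.56 ± 0.33 in high dose against stress, which without stress library 3 were 0.58, -0.75 and -0.16. The anchoring protein gene Akap10 stood at 0.20 ± 0.097 in high dose against low dose.

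The other cyclic AMP phosphodiesterases had list medians of 0.14, -0.20, -0.11 and 0.12 over 10 tested genes in stress against control, low dose against stress, high dose against stress and high dose against low dose. Pde4a averaged 20.7 TPM over the 12 libraries, above Pde4b per length, and its estimates were -0.18 ± 0.11 in stress against control and 0.086 ± 0.11 in high dose against stress. Pde8a stood at 0.23 ± 0.22 in stress against control, Pde1b at -0.44 ± 0.30 and Pde3a at -1.32 ± 0.61 in low dose against stress, Pde7b at -0.23 ± 0.32 in high dose against stress, and Pde3a at 1.08 ± 0.62 and Pde2a at 0.28 ± 0.21 in high dose against low dose. The 13 partners, coactivators and regulators of CREB include the kinase genes Sik2, Sik3 and Stk11. Of these 13 genes, 4 had an edgeR unadjusted p under 0.05 and an estimate below 0 in low dose against stress. They included Atf2 at -0.24 ± 0.084 and the acetyltransferase gene Ep300 at -0.38 ± 0.14. Ep300 had 88.33, 59.27 and 63.04 CPM in low-dose libraries 1, 2 and 3, against 85.79 to 102.0 CPM in stress tumours. Low-dose libraries 2 and 3 had the lowest correlations with log transcript length, at -0.56 and -0.19. The part of that trend in these estimates was not tested. In stress against control the coactivator genes that SIK1 acts on had estimates of both signs, with Crtc1 at 0.32 ± 0.15, Crtc2 at -0.27 ± 0.12 and Crtc3 at -0.19. Crtc1 stood at -0.21 ± 0.15 and Creb3l1 at 0.97 ± 0.61 in high dose against stress. In high dose against low dose, Atf2 stood at 0.18 ± 0.084 and the kinase gene Sik2, a relative of Sik1, at 0.30 ± 0.14.

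**Figure D4:**
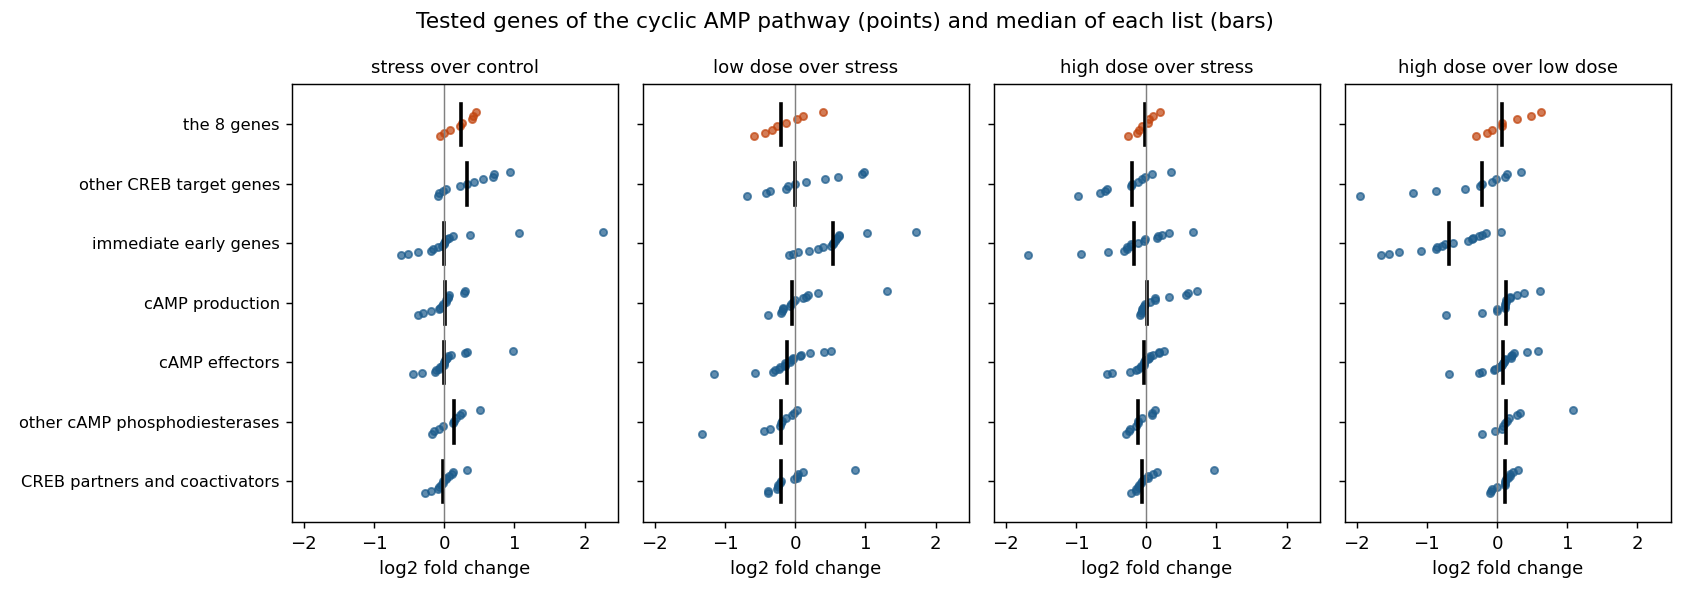
Log2 fold change of every tested gene of the 6 pathway lists (points) in the 4 comparisons, with the list median as a bar. In high dose against low dose, 15 of the 16 immediate early genes lie below 0, with a median of -0.68, and the other lists have medians between -0.21 and 0.12.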

How the data were processed

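Genes of colorectal tumour tissue were measured in 12 libraries. The deposited tables hold an estimated count, FPKM and TPM per gene, made by the authors; per the submitters' processing notes the tools were cutadapt 1.9, HISAT2 2.0.4, StringTie 1.3.4d, DESeq2 and edgeR on GRCm38.p6, and annotation, counting options and filters are not given in the sources used here. Of the deposited estimated counts, 11.7% to 12.5% per library were not whole and were rounded, so counts that reads of similar genes share may be split. The authors' TPM gave levels per length, and the deposited FPKM only gene length. Date-like symbols (26) were restored, and 17820 of 17875 genes matched RefSeq.

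Rounded counts were fitted with edgeR 4.0.16 in R 4.3.3 (quasi-likelihood, robust, TMM, filterByExpr minimum count 10, 12 libraries, 4 groups, 8 residual degrees of freedom) and adjusted by Benjamini-Hochberg over 13453 genes; the fit was tested on simulated counts with known changes. CPM used TMM library sizes. Pearson and Spearman correlations used 100000 permutations. Alternatives were DESeq2 1.42.0, limma 3.58.1 (voom with quality weights, and trend on log2(TPM + 1)), other scaling and filters, a replicate block, gene length offsets, a muscle score, and leaving out libraries; leaving out the 3 muscle-rich libraries was chosen after seeing the data. All 8 members were named in every comparison, with up to 2 genes per pathway list and comparison by smallest unadjusted p, and the 3 most alike genes per member. Crtc3, Klf4, Jun, Klf6 and Myc were named outside this rule, without values from leaving out libraries. Members and lists were chosen with earlier results of these data known. The other marker lists gave summed levels in low-dose, high-dose, stress and control tumours of 29.02 to 55.57, 29.34 to 62.69, 38.3 to 62.87 and 32.39 to 34.38 TPM for neutrophils; 32.11 to 56.79, 57.11 to 79, 40.3 to 74.22 and 39.92 to 74.51 TPM for endothelium; 4.46 to 5, 4.43 to 30.75, 3.93 to 43.12 and 3.41 to 6.03 TPM for mast cells; 49.01 to 86.16, 78.15 to 96.8, 57.63 to 118.2 and 61.85 to 119.4 TPM for adipocytes; and 78.53 to 200.5, 45.77 to 1612, 96.27 to 266.9 and 126.6 to 164.2 TPM for red blood cells.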

Additional observations from a re-analysis of the deposited data

How the results depend on the processing

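None of the 8 genes passed the adjusted test under any of the 23 other settings, and 667 of 715 recomputed values kept their direction and side of the threshold. The other 48 changed sign, all from estimates of at most 0.40 in size, and the cause was not tested unless stated. With gene length offsets the log2 fold changes were 0.011 (Creb1, stress against control), 0.076 (Creb1, low dose against stress), -0.013 (Sik1, high against low dose) and -0.11 (Creb1, high against low dose). On the log2(TPM + 1) scale, whose median over all genes shifted by -0.14 in low dose against stress and 0.14 in high against low dose, they were -0.11 (Nr4a2, low dose against stress), 0.049 (Nr4a1, high against low dose) and 0.0055 (Nr4a2, high against low dose). Pde4d in high dose against stress was -0.31 with voom quality weights and -0.11 with the muscle score. Without the 3 muscle-rich libraries the estimates were 0.021 (Creb1, stress against control), -0.017 (Nr4a2, low dose against stress), 0.0022, -0.0046, -0.32 and 0.03 (Nr4a3, Crem, Pde4d and Creb1, high dose against stress), and 0.015 and -0.04 (Nr4a2 and Pde4d, high against low dose).

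Leaving out each library in turn gave, in stress against control, -0.035 to 0.021 for Creb1, -0.25 to 0.14 for Pde4b, -0.043 to 0.23 for Crem and -0.19 to 0.66 for Nr4a1. In low dose against stress it gave -0.15 to 0.72 for Nr4a1 and -0.078 to 0.22 for Nr4a2. In high dose against stress it gave -0.25 to 0.64 for Nr4a1, -0.33 to 0.075 for Nr4a3, -0.32 to 0.31 for Pde4d, -0.23 to 0.06 for Nr4a2, -0.037 to 0.23 for Crem and -0.16 to 0.03 for Creb1. In high against low dose it gave -0.12 to 0.38 for Sik1, -0.026 to 0.16 for Creb1, -0.057 to 0.57 for Pde4d and -0.36 to 0.13 for Nr4a1. Some estimates kept their sign but moved by over 1.5 times. These ranges were 0.23 to 0.51 for Nr4a2, 0.28 to 0.69 for Nr4a3, 0.15 to 0.32 for Sik1 and 0.014 to 0.48 for Pde4d in stress against control. They were -0.81 to -0.39 for Nr4a3, 0.27 to 0.53 for Crem, -0.64 to -0.15 for Sik1, -0.59 to -0.24 for Pde4b, -0.51 to -0.043 for Pde4d and -0.20 to -0.049 for Creb1 in low dose against stress. They were -0.46 to -0.06 for Sik1 and 0.013 to 0.39 for Pde4b in high dose against stress, and 0.29 to 0.62 for Nr4a3, -0.40 to -0.17 for Crem and -0.23 to -0.022 for Nr4a2 in high against low dose. Of the pathway genes named, Adcy5, Adcy9, Akap10, Creb3l1, Crtc1, Crtc2, Ep300, Pde1b, Pde2a, Pde3a, Pde4a, Pde7b, Pde8a and Sik2 also had an estimate that moved so far without 1 library, and that of Pde1b in low dose against stress was 0.0063 without stress replicate 2.

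Counts over all genes moved more. DESeq2 called 1 gene in stress against control, 95 in low dose against stress, 0 in high dose against stress, 5 in high against low dose and 65 for any difference, against 0 with edgeR and 0 with voom. Of the pathway lists DESeq2 called 2 genes in low dose against stress (Ier3 and Pkig) and 2 for any difference (Ier3 and Ier2). Leaving out libraries gave 0 to 1244 calls in low dose against stress, 0 to 99 in high against low dose and 0 to 1 for any difference, and 0 to 11 pathway genes in low dose against stress. The upper value for any difference came without stress replicate 1, and the other upper values came without low-dose replicate 1, where the 11 were Maff, Ier3, Per1, Ep300, Crtc1, Crebbp, Pde10a, Akap10, Akap13, Pkig and Prkacb. Without low-dose replicate 1 the group keeps low-dose libraries 2 and 3, whose correlations with log transcript length were -0.56 and -0.19. The part of that trend in these calls was not tested. The number of the 8 genes with a higher mean in low dose than in stress was 3 in CPM and 1 in TPM.

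With the replicate block 0 of the 8 genes were called. The labels do not say whether the replicate numbers pair the samples. For 5 of 12 libraries the best match carried the same number, and same-numbered libraries deviated together at -0.45 to 0.42. These values cannot decide the question, since some matches of the same number arise without pairing. With 3 libraries a group, a median standard error of 0.164 over all genes limits what could be detected, and counts of 14 to 57 limit Pde4d and Nr4a3.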
